A study of Drosophila melanogaster with 6 samples.

Results

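The Yorkie (Yki) binding sites at 3 textbook targets of the Hippo pathway, th, mir-ban and CycE, were described in Drosophila melanogaster embryos. Sites were chosen by position alone: a peak of the deposited list was counted where it overlapped, by at least 1 bp, a fixed FlyBase release 5 interval given for each gene. Whether each interval covers its whole gene was not checked, since no release 5 annotation was used here, and peaks lay 2.57 kb outside that of th and 7.44 kb outside that of CycE. The intervals ran from 16025000 to 16060000 on arm 3L for th, from 580000 to 650000 on 3L for mir-ban with its upstream region, and from 15720000 to 15755000 on arm 2L for CycE. They held 13 of the 5136 peaks of the list, with 4 at th, 6 at mir-ban and 3 at CycE. The 6 chromosome arms (2L, 2R, 3L, 3R, 4 and X) held 3182 peaks, and these served as the reference for most statements below.

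The Hippo pathway is a kinase cascade that limits organ growth, and Yki is the coactivator of transcription that it restrains. When the kinase Warts phosphorylates Yki, Yki is kept in the cytoplasm, and when the cascade is off Yki enters the nucleus. It has no DNA-binding domain of its own and reaches its targets through partners such as Scalloped, Homothorax and Mad. The 3 loci stand for different arms of the growth response: th encodes Diap1, which inhibits caspases and so blocks apoptosis, mir-ban encodes the bantam microRNA, which promotes growth and represses the pro-apoptotic gene hid, and CycE encodes Cyclin E, the partner of Cdk2 that drives entry into S phase. Much of what is known of these genes as Yki targets comes from larval imaginal discs.

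There were 3 libraries of Yki ChIP DNA and 3 of input DNA, all from whole embryos aged 8 to 16 h and crosslinked in 1.8% formaldehyde for 15 min. All came from 1 y; cn bw sp strain, so ChIP and input share its genotype. On the X that strain has the alleles oc[R3.2] and y[1]. On the second chromosome it has sp[1], bw[1] and cn[1], together with CG33964[R4.2], Gr22d[1] and Gr22b[1], and on the third it has Rh6[1], GstD5[1] and MstProx[1], together with lab[R4.2] and LysC[1]. The antibody was an unpurified rabbit polyclonal serum against full-length Yki. The labels do not say whether libraries of a group came from separate collections of embryos. The only processed result is 1 peak list in which each peak has a start, an end and 1 score, and nothing in the sources used here states the scale of that score. The list has no value per library and no read number. Depth is therefore unknown, no spread between replicates could be computed, and every statement below is a description of this list without a test. Since whole embryos were used, strong binding in few cells and weak binding in many cannot be told apart.

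Each of the 3 loci carried Yki peaks, and their scores ran from 16.07 to 222.18. The lowest was above 24.9% of the whole list and the highest above 96.6%. The median score of the 13 peaks was 65.4, beside 30.7 for all peaks of the 6 arms. Of the 13, 8 belonged to the upper 50% of the list by score (at least 30.14), where 50.5% of all arm peaks lie. In the upper 25% (at least 72.94), which takes in 23.6% of all arm peaks, there were 6 of the 13. These 6 were shared unequally: 3 of the 4 peaks at th, 2 of the 3 at CycE and 1 of the 6 at mir-ban.

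**Figure D1:**
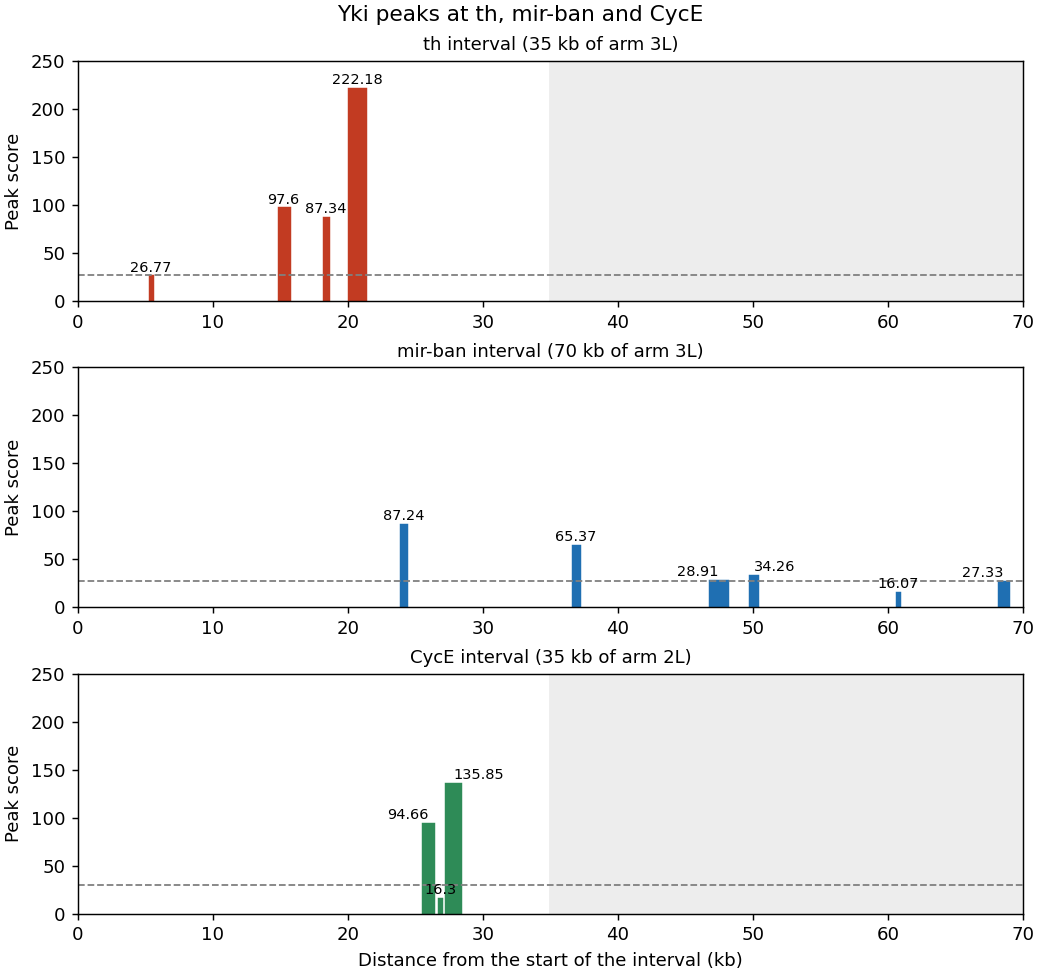
Score of each peak (vertical axis) against its distance from the start of the interval in kb (horizontal axis), with bar widths to scale, for th, mir-ban and CycE from top to bottom. The dashed line is the median score of the arm (27.5 on 3L, 30.1 on 2L) and grey marks positions beyond the 35 kb intervals, which are not plotted. The peaks of CycE stand side by side, 3 of the 4 at th stand close together, and the 6 at mir-ban are spread out.

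At th the list held 1 weak and 3 strong peaks. The strongest, at 16045018 to 16046337 on 3L, was 1320 bp wide and scored 222.18. It was number 28 by score of the 652 peaks on 3L and number 114 on the 6 arms, where 96.4% of peaks scored lower. It was the highest-scoring of the 13 peaks. A peak of 484 bp at 16043132 to 16043615 scored 87.34, and a peak of 873 bp at 16039815 to 16040687 scored 97.6. These were above 80.5% and 83.2% of arm peaks. Together the 3 strong peaks took up a stretch of 6.52 kb, with 1.40 kb and 2.44 kb between neighbours.

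The remaining th peak stood apart from the others. It was 266 bp wide, lay at 16030285 to 16030550, 9.26 kb before the strong group, and scored 26.77, below the 3L median of 27.5. Just outside the interval, 2.57 kb before its start, was a peak of 292 bp at 16022142 to 16022433 with a score of 32.42. It ended 7.85 kb before the first th peak. With the interval widened by 10 kb on each side the count was 6, and the added peaks all lay on this side. On the other side no peak followed for 109 kb. That gap was the number 59 in length of the 651 gaps on 3L, and the peak at its far end, at 16155250 to 16155564, scored only 10.51. The sites at th thus ended with the strongest of them in the direction of rising coordinates.

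The bantam locus had the most peaks of the 3 loci, the lowest median score and the longest distance from its first to its last peak. Its interval was also the longest, at 70 kb against 35 kb for the others. The 6 peaks covered 45.1 kb from the first to the last, with gaps of 1.52 to 12.2 kb. Their median score was 31.6, close to the 27.5 of all 3L peaks, whereas the medians at th and CycE were 92.5 and 94.7.

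Its highest scores were those of its first peaks in order of coordinate, which began 23.9 kb and 36.6 kb after the start of the interval. The peak at 603877 to 604392 was 516 bp wide and scored 87.24, above 80.5% of arm peaks, a level close to the weakest of the 3 strong th peaks. The peak at 616584 to 617157 was 574 bp wide and scored 65.37, above 73.7%. The gap between them was 12.2 kb, and the second had its nearest neighbour 9.59 kb further on. The other 4 bantam peaks scored near or below the middle of the list.

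Among those 4, a pair lay 1.52 kb apart. The first of the pair, at 626743 to 628173, was the widest of the 13 peaks with 1431 bp but scored 28.91. The second, at 629693 to 630398, was 706 bp wide and scored 34.26. The peak at 640609 to 640874 had the lowest score of the 13, at 16.07 with a width of 266 bp, above 22.7% of arm peaks. The last, at 648162 to 648968, was 807 bp wide and scored 27.33. It lay just inside the end of the interval, and the next peak outside it, at 685313 to 685710 with a score of 35.9, came 36.3 kb later. Before the first bantam peak there was none for 59.1 kb, up to a peak at 543131 to 544739 with a score of 173.55, which lay 35.3 kb outside the interval and scored higher than any peak within it.

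At CycE all peaks stood in 1 compact cluster. The peaks at 15745513 to 15746412, 15746684 to 15746987 and 15747216 to 15748389 on 2L were 900, 304 and 1174 bp wide and scored 94.66, 16.3 and 135.85. A weak and narrow peak thus lay between a pair of strong ones. The outer peaks were number 93 and number 62 by score of the 583 peaks on 2L, and 82.4% and 89.6% of arm peaks scored lower. The middle peak scored above 23.2% of arm peaks.

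The 3 CycE peaks were separated by gaps of 271 and 228 bp, and together they took up 2.88 kb. Only 2.40% of the 3170 sets of 3 neighbouring peaks on the 6 arms were packed as closely, and the median set took up 50.0 kb. With no signal track or summits, 3 sites in a row and 1 broad site that the peak caller divided cannot be told apart here. On 2L, 9.45% of gaps were as short as the longer of these gaps, and the shortest was 53 bp.

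The CycE cluster bordered on a long stretch without peaks. The previous peak on 2L, which had a score of 54.69 and lay at 15498869 to 15499832, ended 246 kb before the cluster, and this gap was number 9 in length of the 582 on the arm. The first 25.5 kb of the CycE interval held no peak. After the cluster the next peak, at 15762443 to 15762855 with a score of 25.38, came 14.1 kb later and 7.44 kb outside the interval. How much of the long gap reads can be mapped to was not examined.

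**Figure D2:**
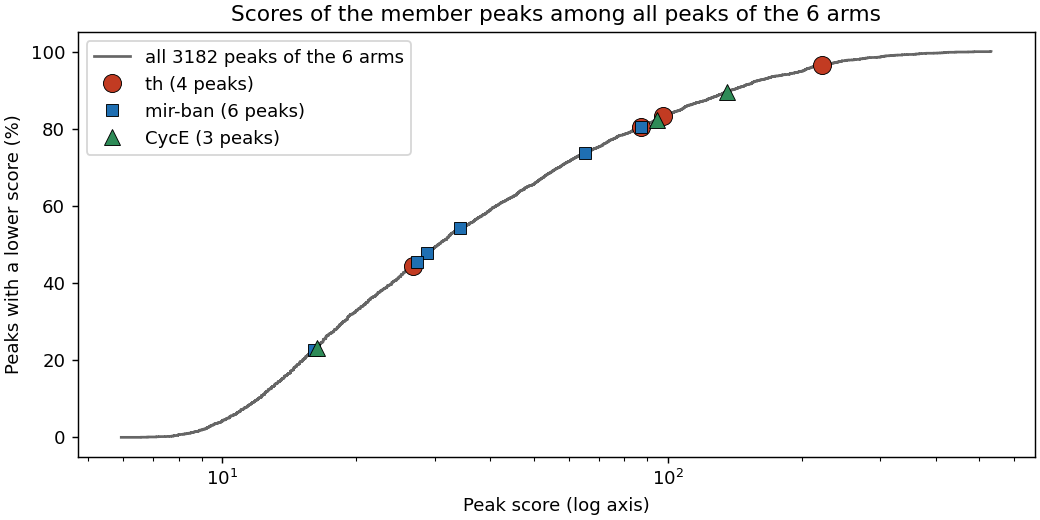
Share of the 3182 peaks of the 6 arms with a lower score (vertical axis, %) against peak score (horizontal log axis), with the peaks of th (circles), mir-ban (squares) and CycE (triangles) marked on the curve. The strongest th peak is at 96.4%, the strongest CycE peak at 89.6% and the strongest bantam peak at 80.5%, and each locus also has at least 1 peak under 50%.

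At th and CycE, width and score put the peaks in the same order. At bantam they did not, and the widest peak was number 4 of 6 by score. Each member was therefore set beside the arm peaks of 80 to 120% of its own width. The bantam peak of 1431 bp scored above 11.0% of 164 such peaks, whose median score was 124. The bantam peaks of 807 and 706 bp scored above 15.2% and 24.8% of theirs. These 3 were thus weak for their width, while the highest-scoring bantam peaks, of 516 and 574 bp, scored above 79.2% and 59.7% of peaks of like width. The bantam peak of 266 bp, with the lowest score, was near the middle for its width, above 47.9% of 823 such peaks.

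All 4 th peaks scored above the median of arm peaks of like width. The shares with a lower score were 83.1% for the strongest peak, 83.7% for the peak of 484 bp, 58.7% for the peak of 873 bp and 84.4% for the weak peak of 266 bp. At CycE the outer peaks were above 55.3% and 60.4% of theirs, and the narrow middle peak was above 36.7%. Score and width both come from the same peak call, so these are not independent measurements.

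**Figure D3:**
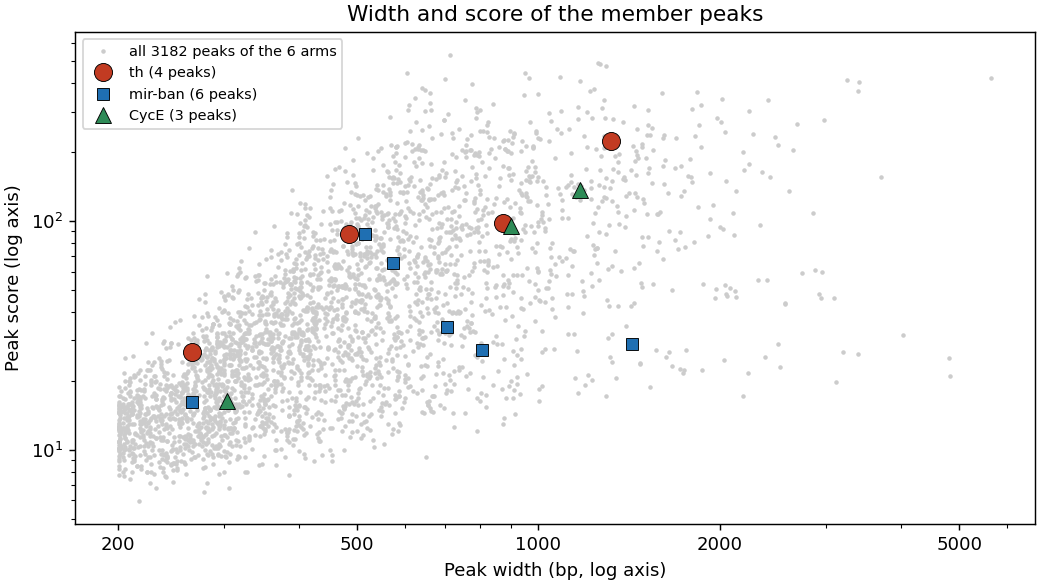
Peak score against peak width in bp, both on log axes, for all 3182 peaks of the 6 arms (grey points) and for the peaks of th (circles), mir-ban (squares) and CycE (triangles). The bantam peaks of 706, 807 and 1431 bp lie in the lower part of the cloud at their width, with scores of 34.26, 27.33 and 28.91.

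All 3 intervals held more peaks per length than their arms. There were 1.14 peaks per 10 kb at th and 0.857 at bantam, against 0.266 over 3L, and 0.857 at CycE against 0.253 over 2L. The CycE value counts 3 peaks that may be 1 divided site, and its density and ratio would be lower if so. The ratios of interval to arm were 4.30 for th (exact binomial 95% interval 1.17 to 11.0), 3.22 for bantam (1.19 to 6.98) and 3.38 for CycE (0.698 to 9.84). The interval for CycE includes 1, and the intervals overlap. They treat peaks as independent and are no test of a locus against its arm or against another locus. No order of the loci by density is given. The intervals cover counting error over peaks only and are too narrow where peaks cluster. The loci were also picked as known Yki targets with results of these data in view, so that a density above that of the arm supports nothing further. By length, peaks covered 8.41% of the th interval, 6.14% of that of bantam and 6.79% of that of CycE, beside 1.41% of 3L and 1.64% of 2L.

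The 5 large arms (2L, 2R, 3L, 3R and X) were also tiled from end to end with windows as long as the intervals. Of 3396 windows of 35 kb, 5.24% held at least the 4 peaks of th and 10.9% at least the 3 peaks of CycE, and 51.3% held none. Of 1697 windows of 70 kb, 5.19% held at least the 6 peaks of bantam and 30.4% held none. The loci were thus in the upper part of the range without being at its end, since the fullest windows held 17 and 27 peaks.

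By the strongest peak alone, the order of the loci was th, CycE, bantam. A score of at least 222.18 occurred in 3.47% of 35 kb windows, one of at least 135.85 in 8.66%, and one of at least 87.24 in 25.8% of 70 kb windows. As many peaks together with as high a top score were found in 25 windows for th (0.736%), in 124 for CycE (3.65%) and in 65 for bantam (3.83%). The windows were laid without regard to genes, whereas each interval was given for a gene.

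**Figure D4:**
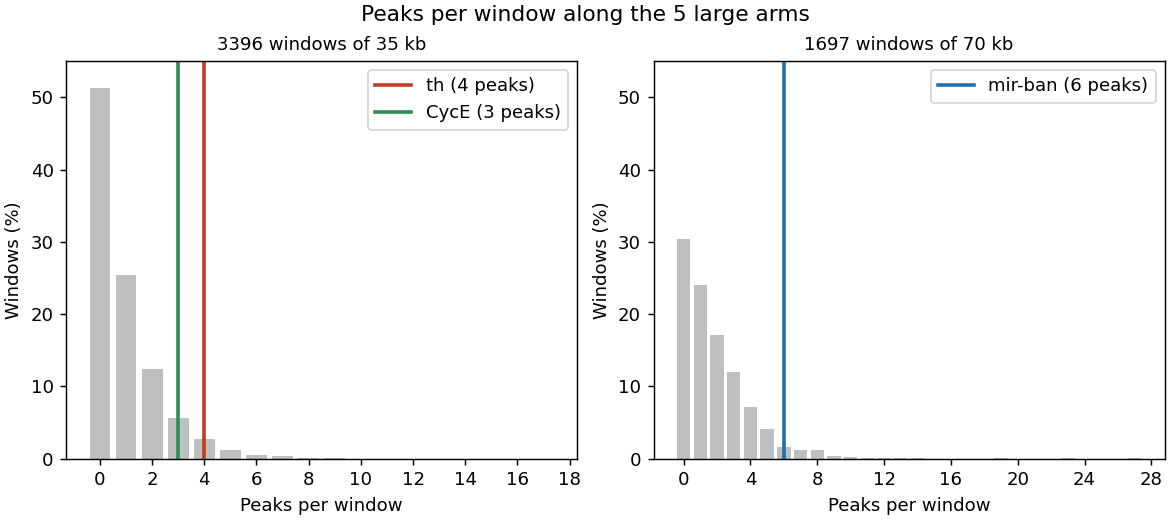
Share of windows (vertical axis, %) by the number of Yki peaks they hold (horizontal axis), for 35 kb windows with th and CycE marked (left) and 70 kb windows with mir-ban marked (right), along the 5 large arms. The marked loci, with 4, 3 and 6 peaks, lie to the right of most windows.

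The loci also differed in how their peaks were spaced. When neighbours no more than 10 kb apart were joined, the th peaks formed 1 run, the CycE peaks 1 run and the bantam peaks 3. Only peaks within the intervals were joined. A peak outside the th interval lay 7.85 kb from the first th peak, so the interval cut that run short. The number of runs hung on the cut of 10 kb. The bantam runs were parted by gaps of 10.2 and 12.2 kb, and the longest th gap was 9.26 kb. Joined across 20 kb, each locus formed 1 run. The median gap between peaks within a locus was 2.44 kb at th, 0.250 kb at CycE and 9.59 kb at bantam, and the median over the arm was 15.9 kb on 3L and 15.3 kb on 2L. Every member but the bantam peak at 603877 to 604392 had another peak within 10 kb. The share of all arm peaks with such a neighbour was not computed, so whether these loci differ in this from other peaks is not known. Of all gaps on 3L, 42.1% were no longer than 10.2 kb. That is a share of gaps and not of peaks, and a peak has a gap on either side. Of all 3164 sets of 4 neighbouring peaks on the 6 arms, 9.48% took up no more than the 16.1 kb of the th peaks, and 10.8% of the 3152 sets of 6 took up no more than the 45.1 kb of bantam.

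The peaks could not be placed on promoters, exons or introns, because a release 5 annotation was not used here and the RefSeq gene table at hand follows release 6. That table lists th under the symbol Diap1 and was used for gene order alone. In it the protein-coding genes next to Diap1 are CG5895 and Mbs, which encodes the myosin-binding subunit of myosin phosphatase. The mir-ban gene lies within lncRNA:CR43334, which has the synonym pri-bantam. The protein-coding genes next to CycE are stol and ND-B17, which encodes a subunit of mitochondrial complex I. Diap1 and CycE each overlap an antisense RNA and a lncRNA gene. Which gene, if any, Yki controls from a given peak cannot be read from the position of the peak.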

How the data were processed

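Yki ChIP-seq and input libraries of 8 to 16 h embryos were summarised by the authors in 1 deposited peak list. Per the file headers, its coordinates follow FlyBase release 5 and its peaks came from MACS. Each peak has 1 score as deposited by the authors, and since nothing here states its scale, scores served to rank and compare peaks inside this list. Per the submitters' processing notes, the tools were MACS2, BWA and CASAVA (1.7.0.2 and 1.7.0.3), on the build BDGP5. Parameters, and whether libraries were pooled before peak calling, are not given in these sources.

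Peaks overlapping the 3 intervals by at least 1 bp were taken, with 1-based coordinates, and every one is named. Ranks, widths, gaps and densities were computed with Python 3.11.15, numpy 2.4.6, pandas 2.3.3 and scipy 1.17.1, and drawn with matplotlib 3.10.9. The furthest peak end stood for the length of an arm. The functions were tested on simulated data. The members, intervals and comparisons were chosen with earlier results of these data known. No test was run, since peaks are not replicates. Motifs, promoter sequences and other pathway genes were planned for but not analysed here, because no release 5 genome was used.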

Additional observations from a re-analysis of the deposited data

How the results depend on the processing

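Of 36 alternative values, 29 stayed within the limits set for them (1.5 times for a count, the 95% interval for a share or ratio) and 7 moved beyond them. The limits for the density ratios were wide, at 1.17 to 11.0 for th, 1.19 to 6.98 for bantam and 0.698 to 9.84 for CycE. Staying within them therefore says little about how stable a ratio is. Keeping only the upper 50% and 25% of the list by score left 3 and 1 of the 6 bantam peaks, and left 3 and 3 of the 4 at th and 2 and 2 of the 3 at CycE. In the upper 25% the density over the arm was 13.7 times at th and 10.1 times at CycE, both higher than in the whole list, and 2.28 times at bantam. These ratios rest on 3 peaks at th, 2 at CycE and 1 at bantam, beside 154 on 3L and 130 on 2L. No interval is given for them, and the rise restates that most th and CycE peaks passed the score cut. Joined across 5 kb the members formed 8 runs, and across 20 kb they formed 3, against 5 at 10 kb. At 20 kb each locus was 1 run, so the loci no longer differed in runs. The strongest th peak was above 95.7% of peaks on 3L alone. Counting by midpoint could not change a count, since no member crossed an edge of its interval. Widening the intervals by 10 kb on each side gave 6, 6 and 4 peaks at th, bantam and CycE. Windows shifted by 0.5 of their length gave shares of 4.86%, 5.08% and 10.7% for th, bantam and CycE. Leaving out 1 Mb at both ends of the arm, or the 2 densest windows of 100 kb on 2L, was chosen after seeing the data and gave ratios of 3.33 to 4.44. No paired analysis was possible because scores are not split by library, so leaving out a replicate was not possible either. Depth per library is unknown, so weak sites that depth hid at these loci cannot be judged.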
